A study of Homo sapiens with 22 samples.

Results

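The genes described here are 10 antioxidant enzymes: PRDX2, CAT, GPX1, GPX4, SOD1, SOD2, TXN, TXNRD1, GCLC and GSR. They were taken by gene symbol from both raw count tables, each of which lists 59087 gene names, and all 10 were found in both and passed the filter on low counts there. RNA-Seq was performed on HUDEP-2, an immortalized human erythroid progenitor line, which was kept in expansion medium at D0 with SCF, erythropoietin, dexamethasone and doxycycline, and then moved to a maturation medium until D6. The H2A.X experiment held 2 WT and 3 H2A.X KO lines and the other, named for BAZ1B, 3 WT and 3 BAZ1B KO lines. Every line was sequenced at D0 and D6, which makes 22 libraries. Both knockouts were made with lentiviral CRISPR/Cas9 and a pair of guides around the coding sequence of the H2A.X gene or around the start codon and first exon of BAZ1B, and each KO library came from a clone grown from a single cell. H2A.X is a histone variant, and BAZ1B (WSTF) is the kinase that phosphorylates a tyrosine on its tail, so the comparisons ask which genes depend on the histone and on that kinase during maturation.

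Red cells carry hemoglobin, whose iron and bound oxygen give rise to superoxide, and they lose their mitochondria and their capacity to make new protein, so they enter the circulation with the antioxidant enzymes they made as erythroblasts. Superoxide dismutases turn superoxide into hydrogen peroxide, which catalase, the glutathione peroxidases and the peroxiredoxins reduce further. Glutathione and thioredoxin supply the electrons and are themselves recharged by reductases that use NADPH.

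Total counts ran from 11910141 to 21013004 in the 10 libraries of the H2A.X experiment and from 33199408 to 41273244 in the 12 of the BAZ1B experiment. Values below are normalized counts, that is, counts scaled to a common effective library size within 1 experiment, so they are not compared between experiments. Adjusted p values are Benjamini-Hochberg values of edgeR's quasi-likelihood test over the 13236 tested genes of the H2A.X or the 13879 of the BAZ1B experiment, and a gene was called at an adjusted p below 0.05. The H2A.X gene, listed as H2AFX, had 333 to 787 normalized counts in KO and 1575 and 1969 in WT at D0, and 308 to 1050 in KO and 1748 and 2391 in WT at D6. BAZ1B had 6556 to 8349 in KO and 9703 to 9913 in WT at D0, and 6817 to 7377 in KO and 9104 to 9429 in WT at D6. Both targets were therefore lower in every KO library than in any WT library of the same day. All 6 erythroid markers were detected in every library. Their summed level was 8056 to 10160 CPM (counts scaled to the same total in every library) in H2A.X KO at D0 against 17580 and 22900 in WT, and 28090 to 46600 against 27540 and 42460 at D6. In BAZ1B KO it was 3486 to 3990 against 2353 to 3036 in WT at D0, and 18500 to 21040 against 23920 to 27730 at D6. Mast cell and eosinophil markers summed to 107 to 179 CPM in H2A.X KO at D0, against 35.7 and 38.0 in WT, where CPA3 and HDC were at 0, and to 0.952 to 5.002 CPM in KO against 35.3 and 75.8 in WT at D6. They summed to 206.5 to 294.8 CPM at D0 and 3.54 to 14.7 CPM at D6 in the BAZ1B experiment. Megakaryocyte markers, nearly all of it ITGA2B since PF4 and PPBP were at 0 in every library, summed to 36.8 to 84.3 CPM in H2A.X KO against 8.16 and 10.4 in WT at D0 and to 1.90 to 4.95 against 2.94 and 7.55 at D6. In BAZ1B KO they summed to 36.1 to 72.6 against 75.4 to 79.7 in WT at D0, and to 1.31 to 4.57 against 7.84 to 9.71 at D6. Monocyte markers summed to at most 6.57 CPM and lymphocyte markers to at most 0.0542 CPM. In 5 of the 6 H2A.X KO columns, all but that of replicate 3 at D6, and in no WT column, the name carries the word Redo, so at D0 this mark and the knockout cannot be told apart.

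Promoter stretches are printed for PRDX2 and CAT, the members that rose most from D0 to D6 in the BAZ1B experiment and in H2A.X KO, and for TXNRD1 and GCLC, which were higher in H2A.X KO at D6. Each runs from 250 bases before to 20 bases after the transcription start, 5′ to 3′ on the gene's strand, from RefSeq on GRCh38.p14, and capitals mark the motifs found. The stretches lie at chr19:12801781-12802050 on the minus strand, chr11:34438684-34438953 on the plus strand, chr12:104215529-104215798 on the plus strand and chr6:53545082-53545351 on the minus strand, in this order.
PRDX2: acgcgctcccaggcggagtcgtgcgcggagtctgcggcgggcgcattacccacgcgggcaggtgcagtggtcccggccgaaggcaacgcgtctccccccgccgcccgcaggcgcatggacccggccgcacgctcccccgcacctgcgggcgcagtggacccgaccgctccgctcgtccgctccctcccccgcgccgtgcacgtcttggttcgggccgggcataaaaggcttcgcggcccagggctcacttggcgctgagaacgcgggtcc
CAT: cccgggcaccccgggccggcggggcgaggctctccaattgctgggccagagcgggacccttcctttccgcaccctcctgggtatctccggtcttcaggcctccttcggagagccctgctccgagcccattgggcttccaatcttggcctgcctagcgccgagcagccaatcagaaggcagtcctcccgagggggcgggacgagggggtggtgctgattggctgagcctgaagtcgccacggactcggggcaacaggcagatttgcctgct
TXNRD1: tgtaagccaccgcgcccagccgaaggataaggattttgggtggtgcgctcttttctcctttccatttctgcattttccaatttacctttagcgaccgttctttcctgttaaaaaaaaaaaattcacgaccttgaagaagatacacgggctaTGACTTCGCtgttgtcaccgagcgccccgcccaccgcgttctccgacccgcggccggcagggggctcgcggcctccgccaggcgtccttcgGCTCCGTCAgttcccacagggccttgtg
GCLC: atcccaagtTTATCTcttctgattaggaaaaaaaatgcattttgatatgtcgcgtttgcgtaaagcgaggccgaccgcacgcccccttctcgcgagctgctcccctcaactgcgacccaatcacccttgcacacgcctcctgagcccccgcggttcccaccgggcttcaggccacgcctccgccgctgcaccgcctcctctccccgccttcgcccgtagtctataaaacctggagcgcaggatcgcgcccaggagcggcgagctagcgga
In windows of 300 bases around the start, 4 motifs were searched on both strands: TGACNNNGC, the core of the antioxidant response element that NRF2 binds, AGATAA for GATA factors, CCACACCC for KLF factors and GTAAACA for FOXO factors. TXNRD1 held the antioxidant response element core on the plus strand 99 bases and on the minus strand 8 bases before its start, and once more in the window of another start of the gene. GCLC held AGATAA, read on the opposite strand, 241 bases before its start. No other match was found in the 14 windows searched, which belong to 8 members. SOD1 and GSR were not searched. Among all 35116 windows, 13.3% held the antioxidant response element core, 10.3% the GATA, 3.28% the KLF and 3.42% the FOXO letters. A match is a description of letters and not of a bound site.

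Levels of different genes were compared as CPM per kilobase of the canonical transcript. In BAZ1B-experiment WT at D0, PRDX2, a peroxiredoxin that is abundant in red cells, stood highest at 811 ± 8.30 (SD, n = 3) and ranked 79th among all genes with a length. SOD1, the cytosolic copper and zinc superoxide dismutase, followed at 427 ± 5.497 (SD, n = 3), then TXN, the cytosolic thioredoxin, at 225 ± 2.32 and GPX4, the peroxidase for lipid hydroperoxides, at 193 ± 4.55. GPX1, the main cytosolic glutathione peroxidase, was at 153 ± 3.95, CAT (catalase) at 107 ± 1.95 and GSR (glutathione reductase) at 81.0 ± 1.06, each the level per length with its SD over 3 libraries. GCLC, the catalytic subunit of glutamate-cysteine ligase, the rate-limiting step of glutathione synthesis, and TXNRD1, the cytosolic thioredoxin reductase, stood lowest at 40.9 ± 0.215 and 29.3 ± 0.532. No pair of neighbours in this order overlapped between libraries. At D6 PRDX2 reached 3985 ± 231 and ranked 11th, CAT passed TXN, GPX4 and GPX1 to 310 ± 9.08, and GCLC at 64.0 ± 2.80 passed GSR at 56.9 ± 2.35 (level per length, SD, n = 3). In H2A.X KO at D6 the libraries of 5 neighbouring pairs overlapped, among them CAT with TXN and GCLC with GSR. SOD2, the mitochondrial manganese superoxide dismutase, was left out of this order, because its coding transcripts run from 507 to 14167 bp and its reads cannot be assigned to a length. The canonical lengths also set the places of TXNRD1 and GCLC, whose coding transcripts run from 400 to 3974 bp (median 1359) and from 592 to 3785 bp (median 2356), so TXNRD1 would stand higher with a shorter length.

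From D0 to D6 in the BAZ1B experiment, all 10 members changed in WT and all 10 in KO, 5 of them upward and the same 5 downward. Across all tested genes 68.9% were called in WT, 33.5% higher and 35.4% lower, and 67.7% in KO, 33.2% higher and 34.5% lower, so most genes were called. The median log2 fold change of the members was -0.02 in WT and 0.09 in KO, against -0.02 and -0.02 over all tested genes. The share of all tested genes whose libraries did not overlap was not computed, here or for any comparison below. In these bulk libraries, fewer cells of a type and less RNA per cell cannot be told apart.

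PRDX2 had 28303, 28375 and 27843 normalized counts in WT at D0 and 139430, 130050 and 146030 at D6. In BAZ1B KO it had 28352, 29166 and 28284 at D0 and 118570, 131630 and 138370 at D6. The D6 libraries of both genotypes lay far above those of D0, and the genotypes overlapped at either day. It rose 4.92-fold in WT, by 2.30 on the log2 scale (SE 0.0566, adjusted p = 8.29e-12), and 4.53-fold in KO, by 2.18 (SE 0.0564, adjusted p = 1.11e-11).

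CAT had 9299, 9383 and 9059 normalized counts in WT at D0 and 27023, 25779 and 27221 at D6, and 9789, 8919 and 8852 in KO at D0 and 22694, 24317 and 25819 at D6. Catalase rose 2.88-fold in WT, by 1.53 on the log2 scale (SE 0.0529, adjusted p = 1.21e-10), and 2.64-fold in KO (1.40, SE 0.0528, adjusted p = 2.10e-10), with no D6 library near those of D0. PRDX2 and CAT were the 2 members past a stricter cutoff, an adjusted p under 0.001 together with a log2 fold change of more than 1.5 either way, in WT, where 4.19% of all tested genes were past it upward. PRDX2 alone was past it in KO, where CAT stood at 1.40 and 3.9% of all tested genes passed upward.

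The other rises were smaller. GCLC had 5851, 5795 and 5801 normalized counts in WT at D0 and 9011, 8762 and 9542 at D6, a log2 fold change of 0.65 (adjusted p = 4.39e-08), and rose by 0.67 in KO (adjusted p = 3.41e-08). SOD1 rose from between 14215 and 14567 to between 17554 and 18093 in WT (0.32, adjusted p = 6.47e-06) and by 0.34 in KO (adjusted p = 3.30e-06). TXNRD1 rose from between 4169 and 4323 to between 5018 and 5189 in WT (0.27, adjusted p = 1.73e-05) and by 0.42 in KO (adjusted p = 3.71e-07). For each of the 3 genes the D0 and D6 libraries did not overlap in either genotype.

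Both glutathione peroxidases fell. GPX1 had 5307, 5140 and 5043 normalized counts in WT at D0 and 2640.5, 2541.5 and 2308 at D6, and 4175, 4775 and 4562 in KO at D0 and 2993, 2905 and 2502 at D6. Its level at D6 was 0.483 of that at D0 in WT, at -1.05 on the log2 scale (SE 0.0710, adjusted p = 3.16e-08), and 0.622 in KO (-0.69, SE 0.0706, adjusted p = 1.81e-06), with every D6 library below every D0 library. GPX4 had 6283, 5998 and 6188 normalized counts in WT at D0 and 4348, 4049.8 and 3994 at D6 (-0.58, adjusted p = 6.63e-05), and 5496, 7535 and 7160 in KO at D0 and 5619.6, 5409 and 5446 at D6 (-0.29, adjusted p = 0.00938). The WT days of GPX4 were apart, while in KO replicate 1 at D0 lay within the range of D6.

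GSR had 9095 to 9324 normalized counts in WT at D0 and 6209.7 to 6744 at D6 (log2 fold change -0.51, adjusted p = 9.19e-08), with -0.36 in KO (adjusted p = 2.63e-06). TXN had 6156 to 6284 in WT at D0 and 4764 to 5309 at D6 (-0.31, adjusted p = 2.62e-05), with -0.44 in KO (adjusted p = 9.11e-07). SOD2 had 4379.5 to 4540.2 in WT at D0 and 3304 to 3611 at D6 (-0.35, adjusted p = 5.27e-05), with -0.16 in KO (adjusted p = 0.0152), where the call was lost without KO replicate 2 at D0 (-0.12) or KO replicate 1 at D6 (-0.11). For these genes the D0 and D6 libraries did not overlap in either genotype. The erythroid markers summed to 2353 to 3990 CPM at D0 and 18500 to 27730 CPM at D6 over the same libraries, and their part in these changes was not tested.

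**Figure D1:**
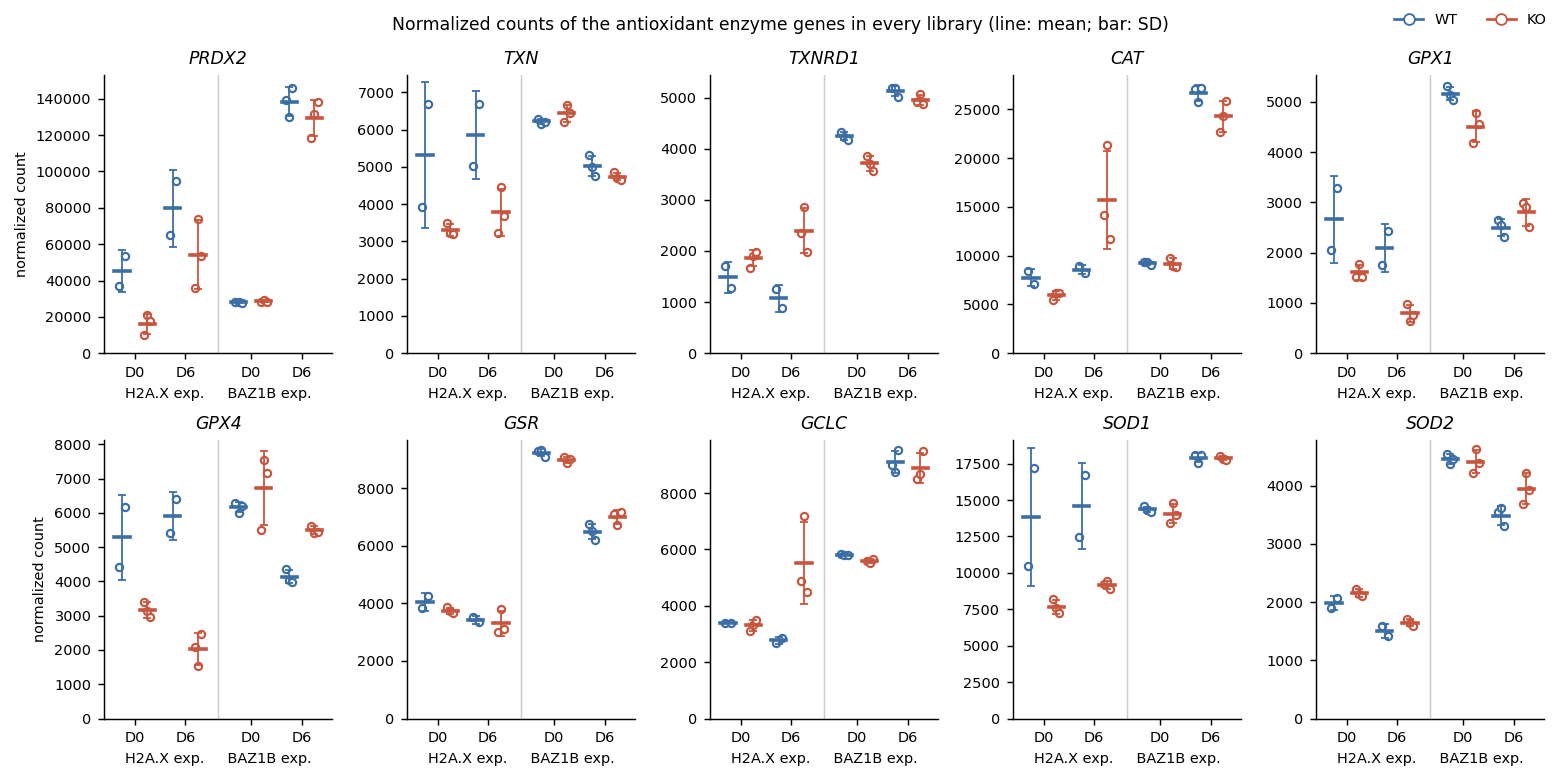
Normalized counts of the 10 members, 1 panel per gene on its own linear axis from 0, with 1 open point per library, a line at each group's mean and a bar for its SD, by experiment, day and genotype (WT blue, KO red). PRDX2 and CAT stood higher at D6 than at D0 in both genotypes of the BAZ1B experiment, with WT PRDX2 between 27843 and 28375 at D0 and between 130050 and 146030 at D6. Counts are scaled within an experiment, so the H2A.X and BAZ1B libraries are not on 1 scale.

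**Figure D2:**
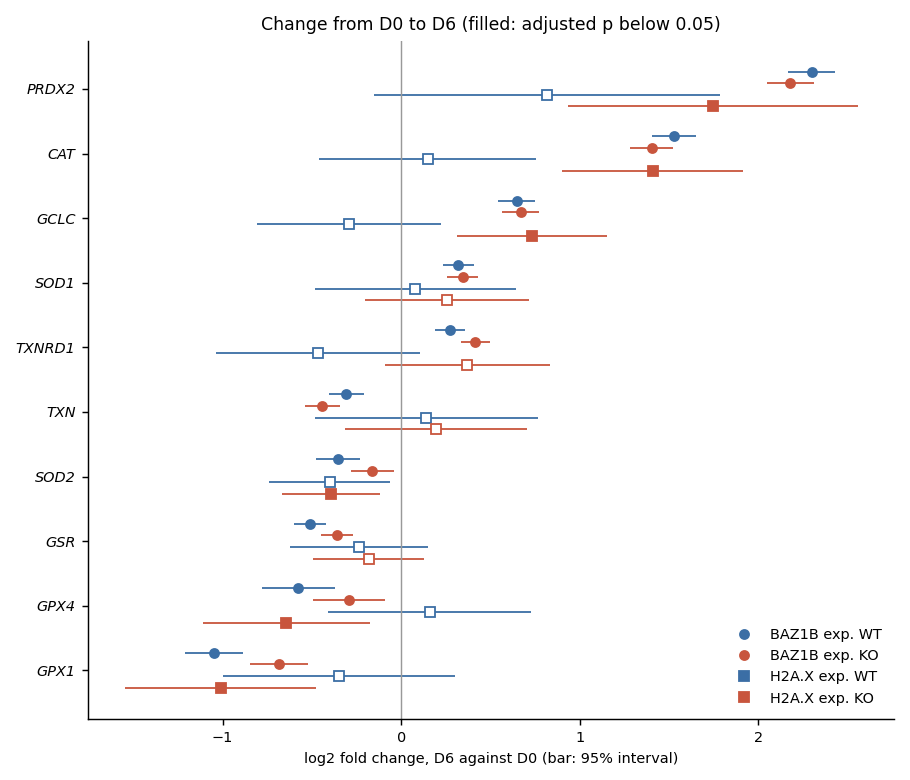
Log2 fold change from D0 to D6 with its 95% interval for each member, in WT and KO of both experiments, with filled points where the adjusted p was below 0.05. In the BAZ1B experiment the values ran from -1.05 for GPX1 to 2.30 for PRDX2 in WT, and WT and KO had the same sign for all 10 genes.

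BAZ1B KO differed little from WT in these genes. At D0 TXNRD1 alone was called, 1 of 10, where 3.88% of all tested genes were called and 2.64% were lower. It had 3857, 3709.7 and 3572 normalized counts in KO and 4323, 4234 and 4169 in WT, all KO libraries below all WT libraries, or -0.19 on the log2 scale (95% interval -0.28 to -0.11, adjusted p = 0.0095). GPX1 was also lower in every KO than in every WT library, at -0.20 (95% interval -0.36 to -0.04), but did not pass the test (adjusted p = 0.165). The remaining 8 lay between -0.06 for GCLC and 0.13 for GPX4. PRDX2 was at 0.02 (95% interval -0.10 to 0.15) and CAT at -0.01 (95% interval -0.13 to 0.11), so neither difference was detectable. The erythroid markers summed to 3486 to 3990 CPM in KO against 2353 to 3036 in WT at D0, with 1 of 6 called higher and 2 lower. Their part in these values was not tested.

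At D6, 2 of the 10 were called, both higher in BAZ1B KO, where 12.8% of all tested genes were called and 6.87% were higher. GPX4 had 5619.6, 5409 and 5446 normalized counts in KO and 4348, 4049.8 and 3994 in WT, with no overlap, which is 1.33-fold (log2 fold change 0.41, 95% interval 0.21 to 0.61, adjusted p = 0.00835). SOD2 had 3689, 4219.8 and 3934.5 in KO and 3551, 3611 and 3304 in WT, again without overlap (0.18, 95% interval 0.06 to 0.30, adjusted p = 0.0438). PRDX2 was at -0.10 (95% interval -0.22 to 0.03) and CAT at -0.14 (95% interval -0.25 to -0.02, adjusted p = 0.109). GSR was at 0.11 (adjusted p = 0.0906) and GPX1 at 0.17 (adjusted p = 0.16), and the libraries of both groups overlapped for each of these 4. Without 1 library, the call of TXNRD1 at D0 was lost when WT replicate 1 (-0.18, adjusted p = 0.0542) or KO replicate 3 (-0.17, adjusted p = 0.0559) was left out. GPX4 was called as higher at D0 without KO replicate 1 (0.25, adjusted p = 0.00318). The call of SOD2 at D6 was lost without any one of 5 of the 6 libraries of that day, all but KO replicate 1 (0.12 to 0.20), while GPX4 kept its call. GPX1 was called as higher without KO replicate 3 (0.24, adjusted p = 0.0402). Fitted on the compared day alone, 0 members were called at D0 and 1 at D6. Without a block for the subclone, no member passed edgeR's test of a difference between the KO effects at D6 and D0 at an adjusted p below 0.05. Of the 10, 6 had an unadjusted p below 0.05, and DESeq2 called 1. Of all tested genes 2.47% passed edgeR's test. GPX1 came nearest, with an effect that was 0.36 higher at D6 than at D0 on the log2 scale (adjusted p = 0.0835), and it passed without KO replicate 3 at D6 (0.43, adjusted p = 0.0345). With each subclone as a block, GPX1 passed with all libraries (0.36). At D6 the erythroid markers summed to 18500 to 21040 CPM in KO against 23920 to 27730 in WT, with 2 of 6 called lower and 0 higher. Their part in these values was not tested.

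In the H2A.X experiment, 0 of the 10 members were called from D0 to D6 in WT by edgeR, 1 had an unadjusted p below 0.05 and DESeq2 called 1, while 2.0% of all tested genes were called. With 2 libraries at each day, the intervals were wide. PRDX2 had 37168 and 53389 normalized counts in WT at D0 and 64855 and 94621 at D6, both D6 libraries above both D0 libraries, a log2 fold change of 0.82 (95% interval -0.15 to 1.79, adjusted p = 0.276). It was 1.745-fold and 1.77-fold higher at D6 within the WT subclones of the same number. With each subclone as a block it was at 0.81 and passed the test (adjusted p = 0.0101). With the length and GC correction described further on, it was at 0.39 with the block (adjusted p = 0.141) and without it (adjusted p = 0.515). CAT had 8375.5 and 7112 at D0 and 8913 and 8239 at D6, with overlap (0.15, adjusted p = 0.79).

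In H2A.X KO, 6 of the 10 were called from D0 to D6, 3 higher and 3 lower, where 30.9% of all tested genes were called, 14.8% higher and 16.1% lower. PRDX2 had 10066, 20781 and 17682 normalized counts at D0 and 35694, 73614 and 53434 at D6, with no overlap (log2 fold change 1.75, SE 0.331, adjusted p = 0.00354). CAT had 5439.9, 6146 and 6187 at D0 and 14164, 21292 and 11679 at D6 (1.41, SE 0.207, adjusted p = 0.00102). GCLC had 3114, 3324 and 3508 at D0 and 4884, 7172 and 4486 at D6 (0.73, adjusted p = 0.00993). All D6 libraries were above all D0 libraries for these 3 genes, and KO replicate 2 was the highest of the D6 libraries in each. GPX1 (-1.01, adjusted p = 0.00676), GPX4 (-0.64, adjusted p = 0.0278) and SOD2 (-0.39, adjusted p = 0.0244) fell, each without overlap. The falls of GPX4 and SOD2 were the least secure: GPX4 lost its call without any one of the 3 D0 libraries or of replicates 1 and 2 at D6 (-0.69 to -0.48), and SOD2 without any one of the D0 libraries or replicate 2 at D6 (-0.41 to -0.37). The erythroid markers summed to 8056 to 10160 CPM at D0 and 28090 to 46600 CPM at D6 in these KO libraries, and their part in the result was not tested.

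At D0, 5 of the 10 members were lower in H2A.X KO than in WT and none was higher, where 35.1% of all tested genes were called and 16.7% were lower. The median log2 fold change of the members was -0.53, against 0.01 over all tested genes. PRDX2 had 10066, 20781 and 17682 normalized counts in KO and 37168 and 53389 in WT, every KO library below both WT libraries, and its level in KO was 0.357 of that in WT (log2 fold change -1.48, SE 0.355, 95% interval -2.35 to -0.62, adjusted p = 0.0129). SOD1 had 8222, 7559 and 7275 in KO and 10472 and 17179 in WT (-0.85, adjusted p = 0.0137). GPX4 had 3406.5, 3148 and 2947 in KO and 4415 and 6159.6 in WT (-0.74, adjusted p = 0.0228). In these and the next genes WT replicate 2 was well above WT replicate 1, which in turn was above the KO libraries.

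GPX1 had 1524, 1774 and 1520.5 normalized counts in KO and 2049 and 3276 in WT (-0.73, adjusted p = 0.0383), a call that was lost with the replicate number as a block (-0.68, adjusted p = 0.0549). TXN had 3495, 3220.0 and 3209.7 in KO and 3925 and 6696 in WT (-0.68, adjusted p = 0.0423). The other 5 did not pass the test: CAT was at -0.39 (adjusted p = 0.2), TXNRD1 at 0.32 (adjusted p = 0.265), SOD2 at 0.12, GSR at -0.11 and GCLC at -0.03. With 1 WT library left at D0, whether the 5 calls hold cannot be told, and the calls of such fits are not given. Without WT replicate 2, all 5 were nearer to WT, with PRDX2 at -1.20, GPX4 at -0.48, SOD1 at -0.45, GPX1 at -0.35 and TXN at -0.25. PRDX2 and SOD1 kept their calls without any one KO library, while GPX1 (-0.81 to -0.69) and TXN (-0.72 to -0.66) lost theirs without any one of them and GPX4 without KO replicate 2 (-0.73) or 3 (-0.69). At D0 the erythroid markers were also lower in H2A.X KO, 5 of 6 called at a median of -1.61 (log2), and summed to 8056 to 10160 CPM against 17580 and 22900 in WT. The mast cell and eosinophil markers summed to 107 to 179 CPM against 35.7 and 38.0 (2 of 3 tested called higher). The megakaryocyte markers summed to 36.8 to 84.3 against 8.16 and 10.4 (ITGA2B, the 1 tested, at 2.39, adjusted p = 0.00847). The monocyte markers summed to 1.52 to 2.17 against 0.124 and 0.255 CPM (LYZ, the 1 tested, called higher). Their part in the lower members was not tested.

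At D6, 7 of the 10 members were called in H2A.X KO against WT, 3 higher and 4 lower, where 43.1% of all tested genes were called, 22.2% higher and 20.9% lower. TXNRD1 had 2341.5, 2867 and 1984 normalized counts in KO and 1266 and 889 in WT, 2.22-fold higher (log2 fold change 1.15, SE 0.220, adjusted p = 0.00466). GCLC had 4884, 7172 and 4486 in KO and 2687 and 2865 in WT, 1.99-fold higher (0.99, SE 0.198, adjusted p = 0.00508). CAT had 14164, 21292 and 11679 in KO and 8913 and 8239 in WT, 1.83-fold higher (0.87, SE 0.234, adjusted p = 0.0142). In all 3 genes every KO library was above both WT libraries, and KO replicate 2 was the highest.

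GPX4 had 2077, 1545 and 2461 normalized counts in KO and 5412 and 6399 in WT at D6, and its level in KO was 0.343 of that in WT (log2 fold change -1.54, SE 0.209, adjusted p = 0.00308). GPX1 had 980.7, 644 and 766 in KO and 1757 and 2434 in WT, a level of 0.381 of WT (-1.39, SE 0.240, adjusted p = 0.00398). For both glutathione peroxidases the KO libraries were below both WT libraries. SOD1 (-0.67, adjusted p = 0.0258) and TXN (-0.63, adjusted p = 0.048) were also lower without overlap, at 8914 to 9438 against 12490 and 16707 and at 3213 to 4456 against 5021.5 and 6696. The call of TXN was lost with DESeq2 (-0.58, adjusted p = 0.0514), with its size factors in edgeR (adjusted p = 0.057) and with the D6 libraries alone (adjusted p = 0.0722), which leaves 6 members. PRDX2 had 35694, 73614 and 53434 in KO and 64855 and 94621 in WT, with overlap, and did not pass the test (-0.56, 95% interval -1.43 to 0.32, adjusted p = 0.226). SOD2 at 0.12 (95% interval -0.19 to 0.43) and GSR at -0.05 (95% interval -0.40 to 0.30) did not pass it either. Without either WT replicate, 1 WT library is left at D6, so the calls of those fits are not given. Without WT replicate 2, TXNRD1 was at 0.95, GCLC at 1.07, CAT at 0.85 and GPX1 at -1.11. Without WT replicate 1, CAT was at 0.95 and TXN at -0.80. SOD1 (-0.67, adjusted p = 0.0571) and TXN (-0.53, adjusted p = 0.129) lost their calls without KO replicate 1. Without KO replicate 3, the column at D6 with no Redo in its name, 5 were called, with TXNRD1 at 1.30, GCLC at 1.15, CAT at 1.08, GPX4 at -1.67 and GPX1 at -1.33, and SOD1 and TXN lost their calls. At D6 the erythroid markers summed to 28090 to 46600 CPM in KO against 27540 and 42460 in WT, and the mast cell and eosinophil markers to 0.952 to 5.002 against 35.3 and 75.8, with TPSAB1 called lower. Their part in these results was not tested.

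**Figure D3:**
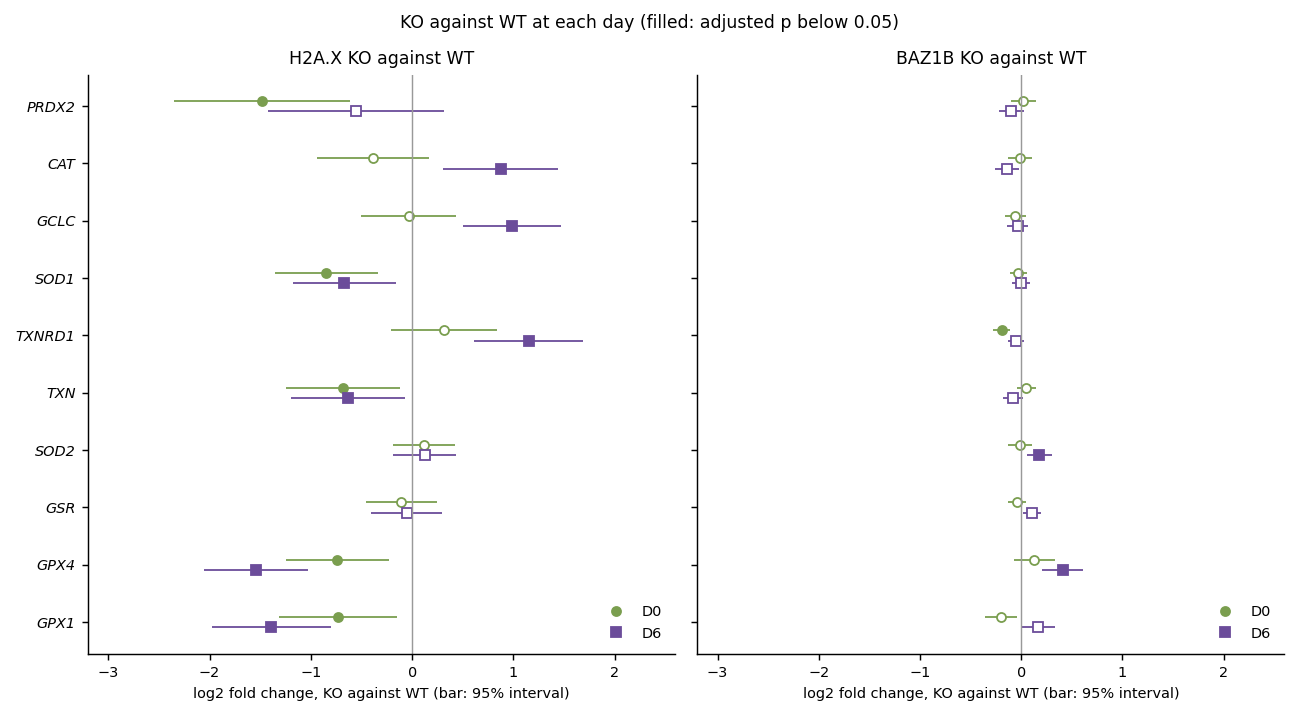
Log2 fold change of KO against WT with its 95% interval for each member, at D0 and D6, 1 panel per experiment, with filled points where the adjusted p was below 0.05. In H2A.X KO the values ran from -1.48 (PRDX2) to 0.32 (TXNRD1) at D0 and from -1.54 (GPX4) to 1.15 (TXNRD1) at D6, and in BAZ1B KO from -0.20 to 0.13 and from -0.14 to 0.41.

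The 5 members that were lower in H2A.X KO at D0 were those with a canonical transcript under 1000 bases: TXN (737 bp), GPX4 (851 bp), SOD1 (895 bp), GPX1 (899 bp) and PRDX2 (925 bp). CAT (2291 bp), GSR (3034 bp), GCLC (3785 bp) and TXNRD1 (3860 bp) are longer. Of the 1064 tested genes with a transcript under 1000 bases, 42.7% were lower and 3.85% higher in H2A.X KO at D0, the median being -0.78 on the log2 scale, and 59.3% were lower and 2.26% higher at D6, with a median of -1.07. Of the 4242 genes of 2000 to 4000 bases, 13.8% were lower and 10.4% higher at D0 and 16.5% lower and 14.4% higher at D6, with medians of -0.01 and -0.02. Across 12013 genes, which share the same libraries and are not replicates, Spearman's rho of log2 fold change and length was 0.54 at D0 and 0.60 at D6 in the H2A.X experiment, and across 12404 genes it was -0.03 and 0.05 in the BAZ1B experiment.

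With each library corrected for transcript length and GC content, the lower calls of the short members were lost at both days, with 1 exception under the replicate block. At D0 PRDX2 was then at -0.82 (adjusted p = 0.0757). With the replicate number as a block in the same fit it was called lower (-0.89, adjusted p = 0.0213). SOD1 was at -0.27 (adjusted p = 0.173), TXN at -0.06, GPX1 at 0.03 and GPX4 at 0.02. At D6 GPX4 was at -0.35 (adjusted p = 0.185), GPX1 at -0.17, PRDX2 at 0.45, SOD1 at 0.05 and TXN at 0.05. The higher calls at D6 were kept, with CAT at 1.02 (adjusted p = 0.0227), TXNRD1 at 0.83 (adjusted p = 0.0187) and GCLC at 0.69 (adjusted p = 0.0307). SOD2 was then called lower, at -0.99 and -0.88, a value that rests on the 14167 bp taken as its length, whereas the median of its 11 coding transcripts is 917 bp.

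**Figure D4:**
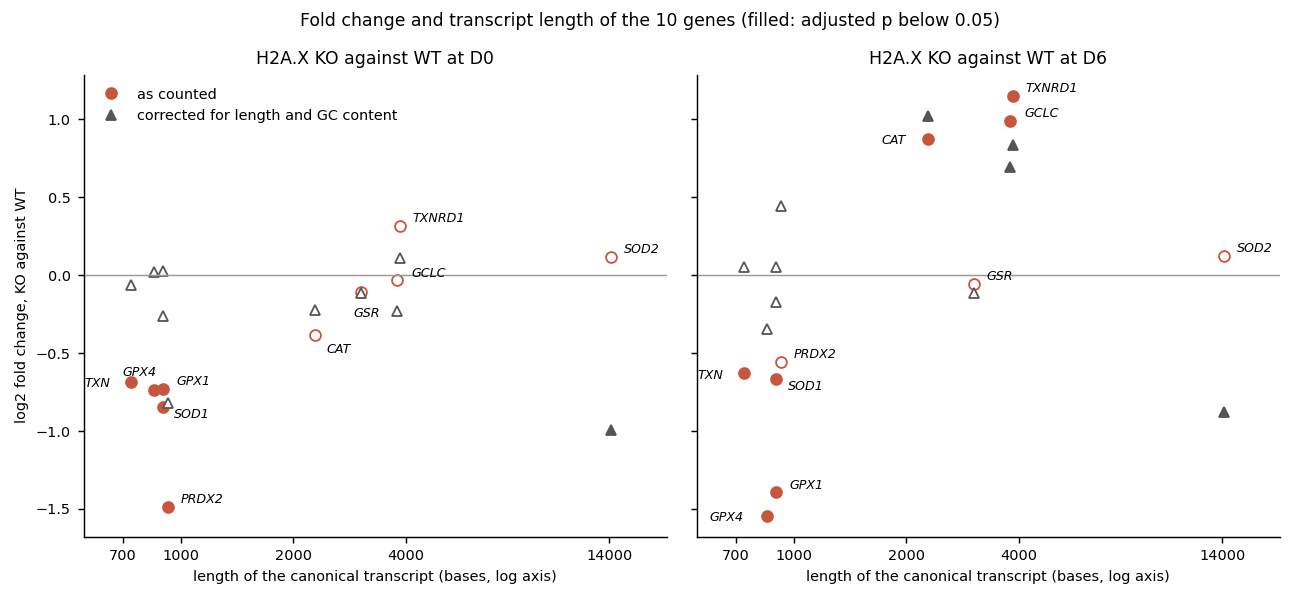
Log2 fold change of H2A.X KO against WT for the 10 members, plotted against the length of the canonical transcript in bases on a log axis, at D0 and D6, as counted (red circles) and corrected for length and GC content (grey triangles), filled where the adjusted p was below 0.05. As counted, the 5 members under 1000 bases lay below 0 at both days, from -1.48 to -0.68 at D0, and with the correction none of them was called.

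No member passed edgeR's test of a difference between the H2A.X KO effects at D6 and D0, where 1.34% of all tested genes passed. Of the members, 4 had an unadjusted p below 0.05, and DESeq2 called 2, CAT and GCLC. CAT was nearest, with a KO effect 1.26 higher at D6 than at D0 on the log2 scale (95% interval 0.47 to 2.05, adjusted p = 0.0922), followed by GCLC at 1.02 (adjusted p = 0.104), TXNRD1 at 0.84 (adjusted p = 0.22) and GPX4 at -0.80 (adjusted p = 0.237). With each subclone as a block, CAT at 1.21 (adjusted p = 0.0331) and PRDX2 at 0.93 (adjusted p = 0.0151) passed. Without KO replicate 3 at D6, CAT at 1.47 (adjusted p = 0.0195) and GCLC at 1.19 (adjusted p = 0.0252) did. Between the libraries of 1 subclone number, GCLC at D6 was 0.794 and 0.841 of D0 in WT and 1.57, 2.16 and 1.28 of D0 in KO. TXNRD1 was 0.743 and 0.697 of D0 in WT and 1.397, 1.5 and 1.005 of D0 in KO. GPX4 was 1.23 and 1.04 of D0 in WT and 0.610, 0.491 and 0.835 in KO. These 3 genes were picked because their WT and KO subclones moved opposite ways, although TXNRD1 in KO replicate 3 barely moved, at 1.005. The share of all tested genes with such a pattern was not computed. For none of the 3 did the difference pass edgeR's test with all libraries and the filter, while GCLC passed with DESeq2 (1.06, adjusted p = 0.018). With the length and GC correction, the change of GPX4 in WT turned from 0.16 to -0.28 (adjusted p = 0.423).

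The other genes of the same pathways were described by lists of the partner enzymes. The 10 peroxiredoxin and thioredoxin genes, 16 glutathione genes, 2 superoxide genes, 6 NADPH genes, 6 genes of selenoprotein synthesis, and 12 regulators and NRF2 targets hold no member. In BAZ1B WT, D6 against D0, 4 peroxiredoxin and thioredoxin genes were higher and 2 lower of 10 tested (median log2 fold change 0.19), 6 glutathione genes higher and 6 lower of 13 (0.06), and 8 regulators and NRF2 targets higher and 3 lower of 11 (0.27). The median over all tested genes was -0.02, and 33.5% were higher and 35.4% lower. NADPH genes were 1 higher and 3 lower of 6, selenoprotein synthesis genes 3 higher and 2 lower of 6, and CCS, the copper chaperone of SOD1 and the 1 superoxide gene tested, was higher. MGST3, a microsomal glutathione transferase, rose by 4.06 on the log2 scale, while its relative MGST2 was at -2.33. GLRX5, a mitochondrial glutaredoxin needed for iron-sulfur cluster assembly, rose by 1.32 and NFE2, an erythroid transcription factor, by 1.43, while PRDX1, the peroxiredoxin most like PRDX2, was at -0.71 and GSS, glutathione synthetase, at -0.57. In BAZ1B KO, the counts over the days were 3 higher and 2 lower of 10 peroxiredoxin and thioredoxin genes, 6 and 6 of 13 glutathione genes, 1 and 2 of 6 NADPH genes, 2 and 2 of 6 selenoprotein synthesis genes, and 6 and 3 of 11 regulators and NRF2 targets, and CCS was again higher. Of all tested genes 33.2% were higher and 34.5% lower. MGST3 at 4.49, GLRX5 at 1.31 and PGD at 1.69 rose with the smallest adjusted p, and MGST2 at -2.03, PRDX1 at -0.74 and GSS at -0.54 fell with the smallest.

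BAZ1B KO differed from WT at D0, where 3.88% of all tested genes were called, in 3 of the listed genes: GPX3, the secreted glutathione peroxidase, at -2.03 (adjusted p = 0.00241), MGST3 at -0.75 (adjusted p = 0.00505) and SEPHS2, which makes the selenium donor for selenoproteins, at 0.41 (adjusted p = 0.0377). At D6, 4 of 6 NADPH genes were higher and none lower (median 0.33). Of 11 regulators and NRF2 targets 4 were lower and none higher (median -0.18), and of 13 glutathione genes 1 was higher and 4 lower, where 12.8% of all tested genes were called and 6.87% were higher. None of the 10 peroxiredoxin and thioredoxin genes, by edgeR at an adjusted p below 0.05, and 1 selenoprotein synthesis gene, lower, was called. The genes with the smallest adjusted p were GLRX, cytosolic glutaredoxin, at 0.98 (adjusted p = 1.07e-06), the NADPH producers PGD at 0.42 (adjusted p = 0.00102) and IDH1 at 0.63 (adjusted p = 0.00849), SLC7A11, the cystine importer, at -0.97 (adjusted p = 0.000342), MAFG, a small MAF partner of NRF2, at -0.37 (adjusted p = 0.00062) and FTL, ferritin light chain, at -0.22 (adjusted p = 0.001).

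In H2A.X KO against WT at D0, 4 of 9 peroxiredoxin and thioredoxin genes were lower and none higher (median -0.61), 4 of 14 glutathione genes lower and 1 higher (-0.39), and 3 of 11 regulators and NRF2 targets lower and none higher (0.00). Of 6 NADPH genes 1 was higher, of 6 selenoprotein synthesis genes 1 was lower, and CCS was lower at -1.17, where 35.1% of all tested genes were called and 16.7% were lower. MGST3 at -2.02 (adjusted p = 0.00421), GLRX5 at -1.46 (adjusted p = 0.00835) and TXNRD2, the mitochondrial thioredoxin reductase, at -1.06 (adjusted p = 0.0088) had the smallest adjusted p among the lower genes, and NNT, a mitochondrial source of NADPH, among the higher ones, at 0.76 (adjusted p = 0.00858). GSTP1, a glutathione transferase, had 1 and 0 reads in the WT libraries and 124, 46 and 17 in KO (adjusted p = 0.0242). At D6, 5 of 9 peroxiredoxin and thioredoxin genes were lower (median -0.68), 5 of 14 glutathione genes lower and 1 higher (-0.42), 2 of 6 selenoprotein synthesis genes lower and 1 higher, 1 of 6 NADPH genes higher, CCS lower, and 3 of 11 regulators and NRF2 targets higher (-0.05), where 22.2% of all tested genes were higher and 20.9% lower. FOXO3, a transcription factor with antioxidant targets, was at 2.18 (adjusted p = 0.00833), NNT at 0.75 (adjusted p = 0.00552), SEPSECS, which charges the tRNA for selenocysteine, at 0.75 (adjusted p = 0.00939), TRNAU1AP at -0.99 (adjusted p = 0.00443), PRDX1 at -1.05 (adjusted p = 0.00668) and TXNRD2 at -0.98 (adjusted p = 0.00702). GCLM, the modifier subunit that pairs with GCLC and was named for that after its values were seen, had 2229.5, 3704.6 and 822 normalized counts in KO and 599 and 725 in WT at D6, every KO library above both WT libraries (log2 fold change 1.77, adjusted p = 0.0142). The length and GC correction was not computed for the lists.

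**Figure D5:**
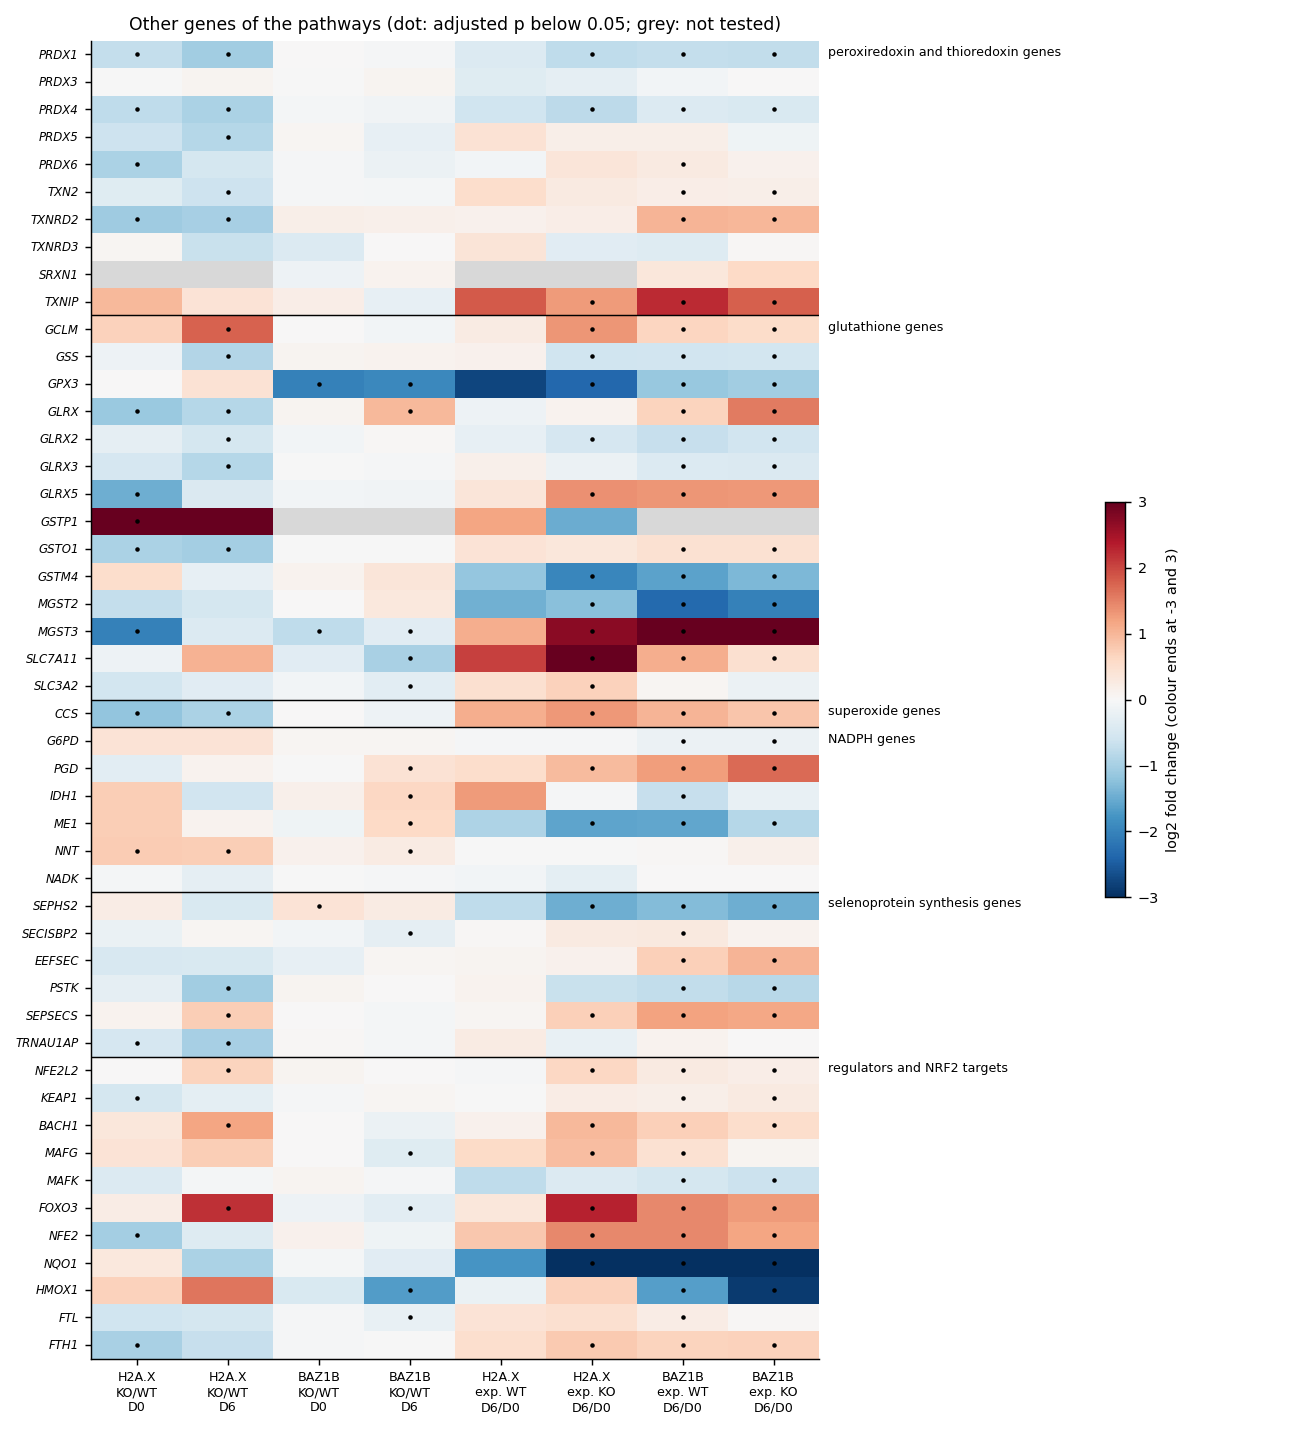
Log2 fold change of the listed pathway genes in each KO against WT comparison and each D6 against D0 comparison, as a colour scale from lower (blue) to higher (red), with a dot where the adjusted p was below 0.05 and grey where a gene was not tested; colours end at -3 and 3. MGST3 rose by 4.06 and MGST2 was at -2.33 in BAZ1B WT over the days, and 4 of 6 NADPH genes were higher in BAZ1B KO at D6.

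Over the days, H2A.X WT had no called gene in any of these lists by edgeR at an adjusted p below 0.05, and neither had the difference of the H2A.X KO effects, where 2.0% and 1.34% of all tested genes were called. In H2A.X KO from D0 to D6, 5 of 14 glutathione genes were higher and 5 lower, 6 of 11 regulators and NRF2 targets higher and 1 lower, 1 of 9 peroxiredoxin and thioredoxin genes higher and 2 lower, and of the 6 NADPH and 6 selenoprotein synthesis genes 1 of each was higher and 1 lower. CCS was higher. Of all tested genes 14.8% were higher and 16.1% lower. MGST3 at 2.71, NFE2 at 1.44 and PGD at 0.95 rose, and NQO1, a quinone reductase and NRF2 target, at -3.04, GSTM4 at -1.95 and SEPHS2 at -1.46 fell.

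Likeness between genes was measured as the mean absolute difference of their log2 normalized counts over the 22 libraries, each taken relative to the WT D0 mean of its experiment, among 12870 genes. PRDX2 was closest to BLVRB, biliverdin reductase B, at 0.128 and to MPC2, a subunit of the mitochondrial pyruvate carrier, at 0.146. CAT was closest to ABCB10, a mitochondrial transporter of erythroid cells, at 0.088 and to KLF3, a transcription factor, at 0.0959. GPX1 was closest to ITPRID2 (0.108) and TMEM147 (0.117), GPX4 to PAFAH1B3 (0.122) and TMEM219 (0.123), and TXN to SELENOS, a selenoprotein, at 0.0755 and SNRPB2 at 0.1015. SOD1 was closest to HPF1 (0.0684) and TIMM23 (0.0688), SOD2 to CBX1 (0.0612) and STIP1 (0.0671), and GSR to HSPA4 (0.0614) and ST7 (0.0741). TXNRD1 was closest to GLG1 (0.0938) and UBE3C (0.0953) and GCLC to C12orf4 (0.0825) and TMPO (0.0881). Among the members themselves, SOD2 and GSR were most alike at 0.131 and PRDX2 and GPX1 least alike at 1.40.

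In GENCODE v44 on hg38, PRDX2 lies on chromosome 19 from 12796820 to 12801800 on the minus strand, within the span of HOOK2 on the same strand and opposite a long noncoding RNA. GPX1 on chromosome 3, from 49357174 to 49358605, shares its strand with another coding gene, and SOD2 on chromosome 6, from 159669069 to 159762529, overlaps WTAP and ACAT2 on the other strand. TXNRD1 shares its strand with the coding gene EID3 and the pseudogene RPL18AP3, and GCLC and SOD1 overlap noncoding genes on both strands. How strand entered the counting is not given in the sources used here. In these counts, reads of neighbours on either strand cannot be told apart from those of the members. CAT lies on chromosome 11 from 34438934 to 34472060, and no annotated gene overlaps it.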

How the data were processed

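The 22 RNA-Seq libraries of HUDEP-2 cells were used as 2 tables of raw counts per gene, 1 column per library, that the authors deposited without normalization. The submitters' processing notes name STAR 2.7.0f, Subread 1.6.4 with featureCounts, and DESeq2 1.22.1, with hg38 as the build. The labels name an unstranded kit and the study's methods a stranded one, and the strand setting of the counting is not given in the sources used here. The labels call the libraries of a group replicates.

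The counts were analysed with edgeR 4.0.16 in R 4.3.3. Genes were kept by filterByExpr (minimum count 10, minimum total 15), scaled by TMM and fitted by the quasi-likelihood test with 1 coefficient per genotype and day, separately for each experiment and on both days together. Tests were two-sided, with Benjamini-Hochberg adjustment over all tested genes. Standard errors were taken from the F statistic and 95% intervals from its residual degrees of freedom, and SDs are over libraries. Intervals treat PCR reads without molecular identifiers as they were counted. The median SD of log2 values within a group ran from 0.0602 in BAZ1B WT at D0 to 0.315 in H2A.X KO at D6.

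Lengths came from GENCODE v44, to which 36434 names matched directly and 753 by an older name, and promoters from RefSeq. The study names an older GENCODE release for its mapping. The gene models that were counted can therefore differ from those used here for lengths and overlaps. The alternatives were DESeq2 1.42.0, its size factors within edgeR, no filter, globin genes left out, each day alone, a correction for length and GC content, the replicate number as a block, both together, and each library left out. For the changes over the days and the difference of effects, the block was the subclone. The D0 and D6 deviations of the same H2A.X subclone correlated by 0.302 to 0.602, so its days are paired, while those of KO and WT with 1 number correlated by 0.064 to 0.215. In the BAZ1B experiment the day correlations ran from 0.0083 to 0.634. The fit was tested on simulated data.

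The members and lists were chosen with earlier results of these data known. Genes named are the members, both targets, the 3 listed pathway genes with the smallest adjusted p in each direction of each comparison, and for each member the 2 most similar genes.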

Additional observations from a re-analysis of the deposited data

Results flagged for a closer look

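Without a block for the subclone, edgeR's test of a difference between the BAZ1B KO effects at D6 and D0 called 3 genes of the pathway lists. They were 1 of 13 tested glutathione genes, 1 of 6 NADPH genes and 1 of 11 regulators and NRF2 targets. Of all tested genes 2.47% passed. None of the 10 antioxidant enzymes was called in that fit, while GPX1 was called with each subclone as a block.

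GLRX, cytosolic glutaredoxin, had 662 to 765 normalized counts in the WT and 730 to 774 in the KO libraries of D0, and 1046 to 1186 and 2185 to 2299.6 in those of D6. Its KO effect was 0.90 higher at D6 on the log2 scale (adjusted p = 0.000469), and 3 of 3 KO libraries were above the WT libraries at D6.

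PGD, an enzyme of the pentose phosphate pathway that makes NADPH, had 21007 to 22411 normalized counts in WT and 25288 to 31012 in KO at D6, with a KO effect 0.44 higher at D6 than at D0 (adjusted p = 0.0286) and 3 of 3 KO libraries above WT.

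MAFG, a small MAF protein that pairs with NRF2, had 2441 to 2838 normalized counts in WT and 1964 to 2047 in KO at D6, and its KO effect differed by -0.38 between D6 and D0 (adjusted p = 0.0207), with 3 of 3 KO libraries below WT.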

How the results depend on the processing

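Among values of single members that passed the test, 465 kept their direction and their call under an alternative, 62 lost the call and 9 changed sign. All 9 changes of sign came from a setting with the length and GC correction, and the losses came from 43 fits without 1 library and 19 others. With the length and GC correction the H2A.X KO calls were 1 at D0 and 4 at D6, and GPX1 moved to 0.0251, GPX4 to 0.0174 and SOD2 to -0.99 at D0, and PRDX2 to 0.45, SOD1 to 0.0529, SOD2 to -0.88 and TXN to 0.0512 at D6. SOD2 moved to 0.0215 in BAZ1B KO over the days. For H2A.X KO against WT, SOD2 at either day and PRDX2 at D6 had not passed the main test. Their moves, here and with the block below, are therefore not among the 9.

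With the replicate block together with that correction the calls were 2 at D0 (PRDX2 at -0.89, adjusted p = 0.0213, and SOD2), 4 at D6 and 2 for the H2A.X difference of effects, with GPX1 at 0.10 and SOD2 at -1.06 at D0, PRDX2 at 0.37, SOD1 at 0.11, SOD2 at -0.9965 and TXN at 0.0762 at D6, and SOD2 at 0.0186 in BAZ1B KO over the days. The replicate block alone gave 2 calls for the H2A.X and 1 for the BAZ1B difference of effects (GPX1 at 0.36, adjusted p = 0.0366) and 1 for H2A.X WT over the days. It also called PRDX2 lower in H2A.X KO at D6 (-0.65, adjusted p = 0.0152) and lost GPX1 at D0 (-0.68, adjusted p = 0.0549). For KO against WT its term is shared by KO and WT libraries of the same number, which are not paired. For the changes over the days and the difference of effects, each subclone had its own term, which pairs its D0 and D6 libraries.

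DESeq2 called 2 members for the H2A.X and 1 for the BAZ1B difference of effects and 1 for H2A.X WT over the days. Without the filter these counts were 3, 2 and 1, and 2 for BAZ1B KO at D0. With the compared day alone, BAZ1B KO gave 0 calls at D0 and 1 at D6. The cause of these moves was not tested, and the shares of all tested genes called under these settings are not given here.

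Leaving out 1 library at a time, the calls ranged from 0 to 5 (H2A.X KO at D0), 1 to 7 (at D6), 0 to 2 (difference of effects), 0 to 0 (WT over the days) and 4 to 6 (KO over the days), and in the BAZ1B experiment from 0 to 2, 1 to 2, 0 to 1, 10 to 10 and 9 to 10. With 2 WT libraries in the H2A.X experiment, a lone WT library was assumed to vary like the other groups. The share of all tested genes called in each of these fits is not given here. These ranges therefore do not tell a loss in the members from a loss in all genes.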
